A study of Mus musculus with 9 samples.

Results

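The CIDE and perilipin families coat the lipid droplets of adipocytes. The 8 genes of both families in the count table, chosen by gene symbol, were Cidea, Cideb, Cidec and Plin1, Plin2, Plin3, Plin4 and Plin5. The table held 24539 genes. Of these, 16745 passed the filter on low counts, all 8 droplet genes among them. RNA-seq libraries were made from inguinal white adipose tissue of 9 C57BL/6 mice on chow diet, 1 library per mouse. Libraries labelled KO came from Tet1 floxed mice in which, per the study's methods, a Fabp4-Cre transgene deletes Tet1, a DNA demethylating dioxygenase. Fabp4 is made in adipocytes and also in some macrophages and endothelial cells. WT libraries came from Tet1 floxed mice without that deletion. Mice were exposed to cold (4 °C) for 4 h or kept at room temperature (RT), and sex and age were not given in the labels. There were 2 KO cold, 2 KO RT, 3 WT cold and 2 WT RT libraries, with totals of 47605902 to 56292251 counts.

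The labels have 3 limits. Mice 1781 and 1786 carry opposite housings in the sample titles and in the names of the count columns. The column names were followed here, so that 1781 is a KO cold and 1786 a KO RT library. Over 61 genes that WT libraries, fitted alone, had higher in cold, the median log2 level over WT RT was 1.20 in 1781. It was 1.40 in 1782, the other KO cold library, 0.27 in 1786 and 0.35 in 1814, the other KO RT library. The WT libraries, from which the genes were chosen, had 1.24 to 1.38 in cold and -0.07 to 0.07 at RT. Tet1 itself did not follow the KO label. It stood at 10.2 and 5.30 CPM (counts scaled to library size) in KO cold and 12.3 and 5.91 CPM in KO RT libraries, against 5.33, 3.87 and 3.98 CPM in WT cold and 4.51 and 4.01 CPM in WT RT libraries. Over both housings Tet1 was higher, not lower, in KO, with a log2 fold change of 0.96 (SE 0.269, edgeR quasi-likelihood test, adjusted p = 0.292). The higher KO value in each housing was that of mouse 1781 (10.2 CPM) or 1786 (12.3 CPM), the mice of conflicting housing labels. Mice 1782 and 1814 had 5.30 and 5.91 CPM, near the highest WT value of 5.33 CPM. No source used here says which exons are deleted, and gene-level counts can include exons outside the deleted part. These values therefore do not test the deletion, and the genotype is given below as the label has it. The design text names fractionated adipocytes and the labels name whole tissue. All 10 mature adipocyte markers were detected in every library. The 8 fibroblast and progenitor markers (summed level 11204 to 17224 CPM) and 5 endothelial markers (1008 to 1601 CPM) were also detected in every library. So were all 10 macrophage markers (summed level 590 to 1432 CPM) and the mammary epithelial keratins, in a list of 9 markers that summed to 1593 to 2482 CPM and of which the milk protein genes Csn2 and Wap were at 0 in some libraries.

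CIDE proteins gather where droplets touch and let lipid pass from the smaller droplet to the larger. Cidec (also called FSP27) is the main form in white adipocytes and favours a single large droplet, Cidea is typical of brown and beige adipocytes, and Cideb is best known from hepatocytes, where it takes part in the lipidation of lipoproteins. Perilipins control the access of lipases to the droplet. Plin1 holds the lipase co-activator ABHD5 until beta-adrenergic signalling releases it, Plin2 and Plin3 are found in most cell types, Plin4 coats young droplets in adipocytes, and Plin5 is made in oxidative tissues and links droplets to mitochondria.

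Cidea was the member that differed with the genotype label. It was about 5-fold higher in libraries labelled KO than in WT libraries, and it was called in cold and over both housings. Cidec was higher in 4 of the 5 cold libraries than in any RT library, but edgeR did not call the difference. The share of all genes that separate in this way was not counted. Plin3 varied least. Besides Cidea, edgeR called no member in any comparison.

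On the GRCm38 genome, Cideb lies on chromosome 14 (55754050 to 55758458), Cidec on chromosome 6 (113424634 to 113435760), Plin1 on chromosome 7 (79720218 to 79732903) and Plin2 on chromosome 4 (86648386 to 86670060), all on the minus strand. Plin4 (56100591 to 56109803), Plin5 (56111601 to 56117596) and Plin3 (56277476 to 56292873) share the minus strand of chromosome 17. Only 1797 bases separate Plin4 from Plin5, and the 3 genes span 192.283 kb. By the GENCODE annotation, 76.34% of the exon bases of Cideb (1136 bases) also belong to Nop9 on the opposite strand. No source used here says whether the counting used strand, so Cideb counts are uncertain. Plin4 shares 0.29% of its exon bases (17 bases) with Hdgfl2, and the remaining members share none with another gene.

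As Plin4 and Plin5 are near neighbours with unlike profiles, and Cidec was the member with the largest cold difference, their start regions are shown. These are windows from 250 bases before to 50 bases after a RefSeq transcript start (GRCm38.p6), which exist for 7 of the 8 genes, and all 3 are on the minus strand. Where a gene had several windows, the window with the most marked matches is shown, so these matches are a selected view. Capitals mark matches to the motifs described after them, on the strand shown.
Cidec, chr6:113434715-113435014, the start site inside the gene: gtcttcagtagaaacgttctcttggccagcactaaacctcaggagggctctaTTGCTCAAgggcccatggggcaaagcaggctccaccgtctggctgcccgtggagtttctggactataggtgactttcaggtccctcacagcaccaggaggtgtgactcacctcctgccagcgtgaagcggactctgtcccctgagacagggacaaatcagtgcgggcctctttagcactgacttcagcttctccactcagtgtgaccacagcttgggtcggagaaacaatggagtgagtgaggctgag
Plin4, chr17:56109733-56110032: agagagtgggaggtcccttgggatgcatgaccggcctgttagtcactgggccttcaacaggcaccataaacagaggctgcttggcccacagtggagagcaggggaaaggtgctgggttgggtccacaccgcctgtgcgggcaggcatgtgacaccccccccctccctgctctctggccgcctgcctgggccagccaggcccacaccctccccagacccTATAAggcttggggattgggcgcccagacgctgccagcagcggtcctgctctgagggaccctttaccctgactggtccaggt
Plin5, chr17:56117499-56117798: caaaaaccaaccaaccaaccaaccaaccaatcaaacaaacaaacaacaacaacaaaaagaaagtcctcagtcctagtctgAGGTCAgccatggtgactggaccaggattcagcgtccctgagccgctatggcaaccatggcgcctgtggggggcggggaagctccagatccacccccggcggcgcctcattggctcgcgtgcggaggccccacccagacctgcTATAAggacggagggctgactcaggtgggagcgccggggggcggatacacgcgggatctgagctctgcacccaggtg

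In these windows, the letters TATAA stood at position -32 from the start site in Plin4 and at -27 in Plin5, and Cideb held them at -172. They occur in 24.873% of all 32851 promoter windows. The nuclear receptor hexamer AGGTCA, searched on both strands, was found in Plin5 at -170 and, at 13 bases past the start, in another Plin5 window that partly overlaps the one shown, and in Plin2 at -218, against 16.255% of all windows. A direct repeat of this hexamer spaced by 1 base, the response element of PPAR receptors, was found in 0 of the 9 member windows and in 0.04% of all windows. The C/EBP letters TTGCNNAA (both strands) were in Cidec at -198 and in Plin1 at -187 and -58, against 10.797% of all windows. The E-box CACGTG was in Plin2 only (7.15% of all windows), and the cAMP response element letters TGACG in no member window (20.812% of all windows). These are matches of letters and were not linked to any factor.

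Levels were compared between genes on the length-corrected RPKM scale, from the 7 libraries whose deposited RPKM columns could be assigned. Cidec led with a median of 1485 RPKM (748 to 1967), followed by Plin1 with 470 RPKM (362 to 552). In these 7 libraries their ranges overlapped neither each other nor that of the next gene. Mouse 1781, where Plin2 per length was 1.04 times Plin1, is not among them. Plin4 had a median of 269 RPKM (152 to 344) and Plin2 of 220 RPKM (174 to 311), with overlapping ranges. Then came Cidea with 20.5 RPKM and Plin3 with 18.7 RPKM, Plin5 with 6.26 RPKM (2.51 to 12.1) and Cideb with 0.886 RPKM (0.696 to 1.71). The place of Cidea depended on the label. It reached 99.3 to 106 RPKM in the KO libraries, above the highest Plin3 value of 21.5 RPKM, and 14.1 to 23.4 RPKM in WT libraries, within reach of Plin3 in the same libraries (17.9 to 21.1 RPKM). Over all 9 libraries, the coefficient of variation of the CPM was 81.1% for Cidea, 46.3% for Plin5, 43.7% for Cidec, 36.2% for Plin4 and 33.3% for Cideb, and it was smallest for Plin3 at 8.32%.

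**Figure D1:**
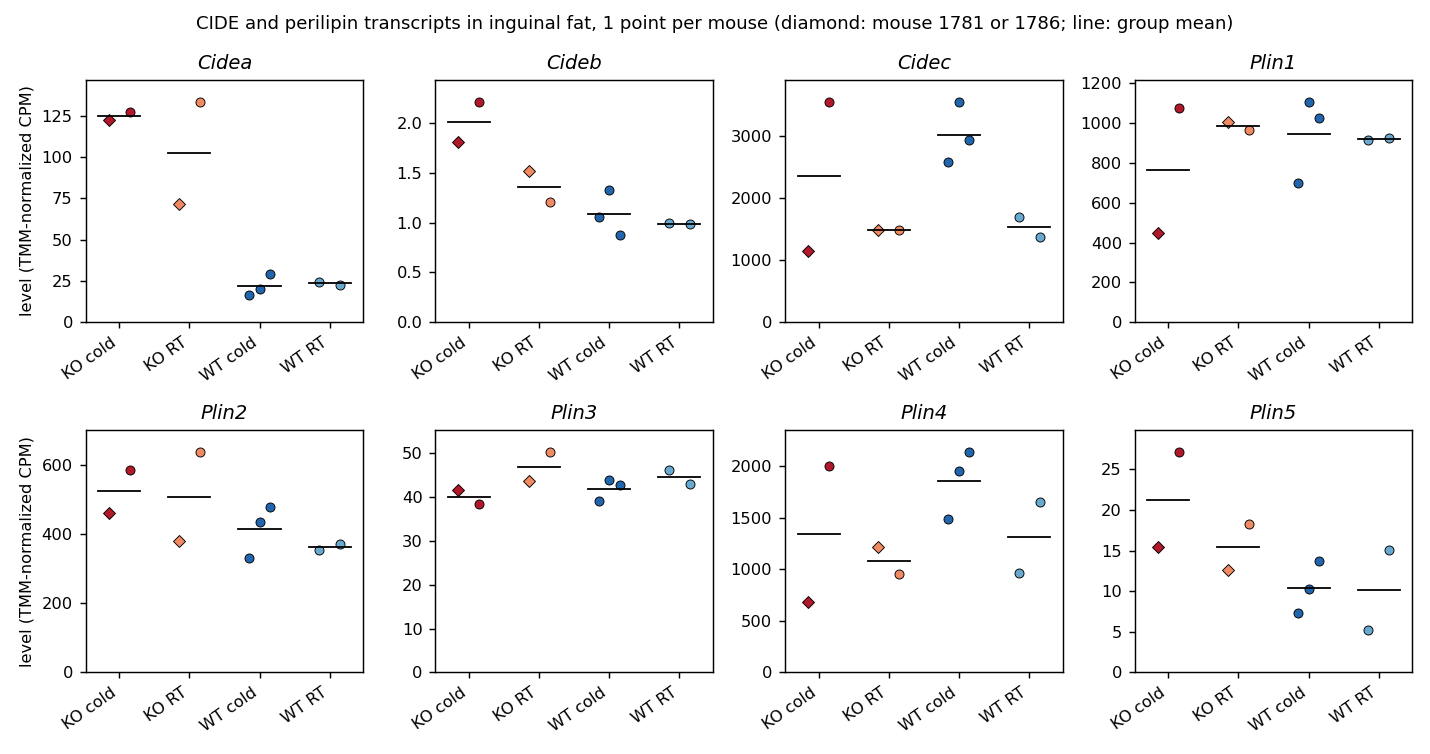
Level of each gene in CPM (linear vertical axis starting at 0, TMM-normalized) in the libraries labelled KO cold, KO RT, WT cold and WT RT, with 1 point per mouse and a line at the group mean. Diamonds are mice 1781 and 1786, whose housing labels conflict. Cidea is the panel in which all KO points (71.6 to 134 CPM) lie above all WT points (16.6 to 29.4 CPM).

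Cidea, the CIDE protein of brown and beige fat, lies on chromosome 18 (67343604 to 67367785, plus strand, GRCm38). It had 123 and 127 CPM in KO cold libraries and 71.6 and 134 CPM in KO RT libraries. In WT libraries it had 16.6, 20.3 and 29.4 CPM in cold and 24.3 and 22.7 CPM at RT. The lowest KO library was thus above the highest WT library, and mouse 1786 was the lowest of the KO libraries. The share of all genes whose groups separate was not counted, for this or any other pair of groups, here or for the other members. In cold, Cidea was higher in KO by a log2 fold change of 2.50 (SE 0.283, edgeR quasi-likelihood test, adjusted p = 0.0201), and it was the only member called. Of all genes tested in this comparison, 0.0776% were called higher and 0% lower. At RT the log2 fold change was 2.13 (SE 0.322), but the adjusted p was 0.195 and Cidea was not called, although it ranked 11 of 16745 genes by p. At RT 0 members were called by edgeR, 1 member (Cidea) passed an unadjusted p of 0.05 (7.4% of all genes), and DESeq2 called 1 (Cidea, log2 fold change 2.14, adjusted p = 5.8e-08). The edgeR background of this comparison was 0.0358% of genes called higher and 0% lower, and DESeq2 called 62 genes higher and 64 lower of 15599.

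Averaged over both housings, Cidea was higher in KO by 2.31 on the log2 scale (SE 0.216, adjusted p = 0.0049), with 0.113% of all genes called higher and 0.0119% lower. It was again the only member of 8 to be called. The study itself lists Cidea as higher in KO both at RT and after cold, from this same experiment and at the same thresholds. It also names Cidea among the genes checked by qPCR. The calls made here are therefore no independent evidence. The call in cold was lost without mouse 1781 (adjusted p = 0.0815), 1782 (0.091), 1773 (0.112), 1783 (0.215), 1788 (0.0528) or 1810 (0.0542), with the log2 fold change between 2.32 and 2.76 over the libraries left out in turn. The call over both housings was lost without 1810 only (adjusted p = 0.0542). Cold itself moved Cidea little. Its log2 fold change, cold against RT, was 0.29 (SE 0.307) in KO and -0.09 (SE 0.285) in WT, and the sign of the first turned with the grouping by sample titles (-0.37).

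The genes whose profile over the 9 libraries was most like that of Cidea were Cox7a1, a cytochrome oxidase subunit, with a Pearson r of 0.98 on log2 CPM, and Gnao1, a G protein subunit, with r = 0.98. These correlations share libraries and scaling and are descriptions. Of the 9 thermogenic adipocyte markers, edgeR called 2 higher and 0 lower in KO in each housing (background 0.0776% in cold and 0.0358% at RT). The 9 log2 fold changes, all positive, had a median of 2.0 in cold and 2.09 at RT. The study itself lists all 9 as higher in KO after cold, from this same experiment, so these markers are no independent evidence. Their summed level, with 9 of 9 markers detected in every library, was 1953 to 2831 CPM in KO cold and 954 to 1509 CPM in KO RT libraries, against 564 to 782 CPM in WT cold and 424 to 505 CPM in WT RT libraries. Cox7a1 was called in both housings (log2 fold change 2.28 in cold and 2.19 at RT). Macrophage markers summed to 742 to 1236 CPM in KO cold and 590 to 843 CPM in KO RT libraries, against 961 to 1222 CPM in WT cold and 1067 to 1432 CPM in WT RT libraries. None was called, and at RT 5 of 10 were lower in KO at an unadjusted edgeR p of 0.05, a level that 4.72% of all genes reached in that direction. Skeletal muscle markers summed to 31.5 to 72.9 CPM in KO cold, against 45.3 to 79.4 CPM in WT cold libraries. None was called, and 5 of 7 were higher in KO in cold at that unadjusted p (3.32% of all genes). The rest were lower, none of them at that p, and the median log2 fold change of all 7 was 1.79. Over the 9 libraries, 1 of the 7 ran from 12.5 to 63.8 CPM and weighs most in the sums, while the others reached at most 13.4 CPM. The part of these markers in the Cidea difference was not tested. In bulk tissue, fewer or more cells of a type and less or more RNA per cell cannot be told apart.

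Ucp1, the uncoupling protein of thermogenic mitochondria, differed from Cidea in its course with cold. It had 1062 and 1483 CPM in KO cold and 261 and 623 CPM in KO RT libraries, against 168, 147 and 213 CPM in WT cold and 14.5 and 3.15 CPM in WT RT libraries. The cold response of Ucp1 in WT was 4.32 on the log2 scale (SE 0.683, adjusted p = 0.0495) while that of Cidea was -0.09 in the same libraries. Ppargc1a, a coactivator of mitochondrial genes, had 80.8 and 125 CPM in KO cold and 18.2 and 41.6 CPM in KO RT libraries, against 37.5, 28.6 and 39.7 CPM in WT cold and 9.79 and 7.97 CPM in WT RT libraries. Over both genotypes it rose in cold by 1.89 (SE 0.259, adjusted p = 0.00917).

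**Figure D2:**
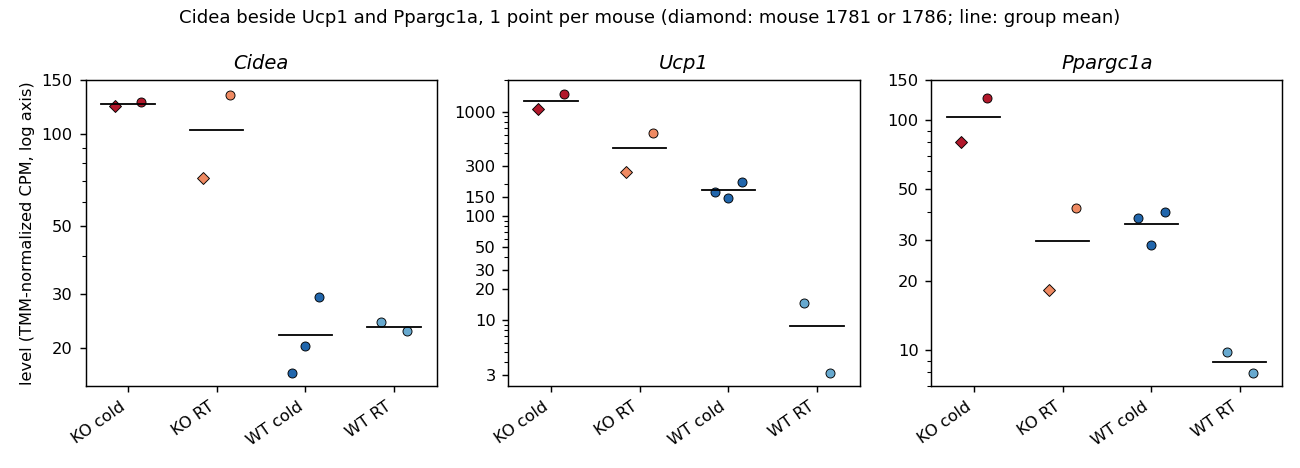
Levels of Cidea, Ucp1 and Ppargc1a in CPM (log axes) in the libraries labelled KO cold, KO RT, WT cold and WT RT, with 1 point per mouse, diamonds for mice 1781 and 1786 and a line at the group mean. Cidea separates KO from WT libraries and is level between WT cold and WT RT, whereas Ucp1 and Ppargc1a separate WT cold (147 to 213 CPM and 28.6 to 39.7 CPM) from WT RT libraries. Ppargc1a does not separate all KO from all WT libraries, as mouse 1786 (KO RT, 18.2 CPM) lies below the WT cold libraries.

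Cideb, known mainly from liver, was the lowest member, with 1.81 and 2.21 CPM in KO cold and 1.52 and 1.20 CPM in KO RT libraries, against 1.05, 1.33 and 0.88 CPM in WT cold and 0.992 and 0.983 CPM in WT RT libraries. The KO and WT ranges overlapped through 1 KO RT library. Over both housings the log2 fold change was 0.67 (SE 0.211, adjusted p = 0.319), and the unadjusted edgeR p was 0.0118. Nop9, which shares most of the Cideb exons on the other strand, had 21.4 CPM on average in KO cold and 17.3 CPM in KO RT, against 20.6 CPM in WT cold and 20.2 CPM in WT RT libraries, a difference over both housings of -0.08 (SE 0.095).

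Cidec, the CIDE protein of white adipocytes, had 1153 and 3552 CPM in KO cold libraries, against 1482 CPM in each KO RT library. In WT it had 2583, 3547 and 2941 CPM in cold libraries, against 1692 and 1374 CPM in RT libraries. The WT groups did not overlap, and 4 of the 5 cold libraries were above every RT library. The exception was mouse 1781, the lowest of all 9 libraries. The share of all genes that separate in these ways was not counted. The log2 fold change, cold against RT, was 0.98 in WT (SE 0.406, adjusted p = 0.354), 0.67 in KO (SE 0.433, adjusted p = 0.51) and 0.82 over both genotypes (SE 0.296, adjusted p = 0.142).

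Thus edgeR called 0 of the 8 members in any cold comparison. An unadjusted p of 0.05 was passed by 1 member (Cidec) in WT, 0 in KO and 1 (Cidec) over both genotypes, beside 13.2%, 15.6% and 23.5% of all genes, so that these counts were not above the background. DESeq2 called Cidec over both genotypes (0.82, adjusted p = 0.0246) but no member within WT or KO. It called 439 genes higher and 465 lower of 15993 over both genotypes, more than edgeR did. In the edgeR background, 0.197% of genes were called higher and 0.173% lower in WT cold, and 0.191% higher and 0.143% lower in KO cold. Over both genotypes, edgeR called 1.6% higher and 1.55% lower. Without mouse 1781, Cidec was called over both genotypes (1.12, adjusted p = 0.0118), as it was without mice 1781 and 1786 (1.12, adjusted p = 0.0347). Without mouse 1782 the difference was 0.31 over both genotypes, and within KO it turned to -0.36. Nearest to Cidec in profile were Ywhab, a 14-3-3 protein (r = 0.98), and Mocs1, an enzyme of molybdenum cofactor synthesis (r = 0.98).

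**Figure D3:**
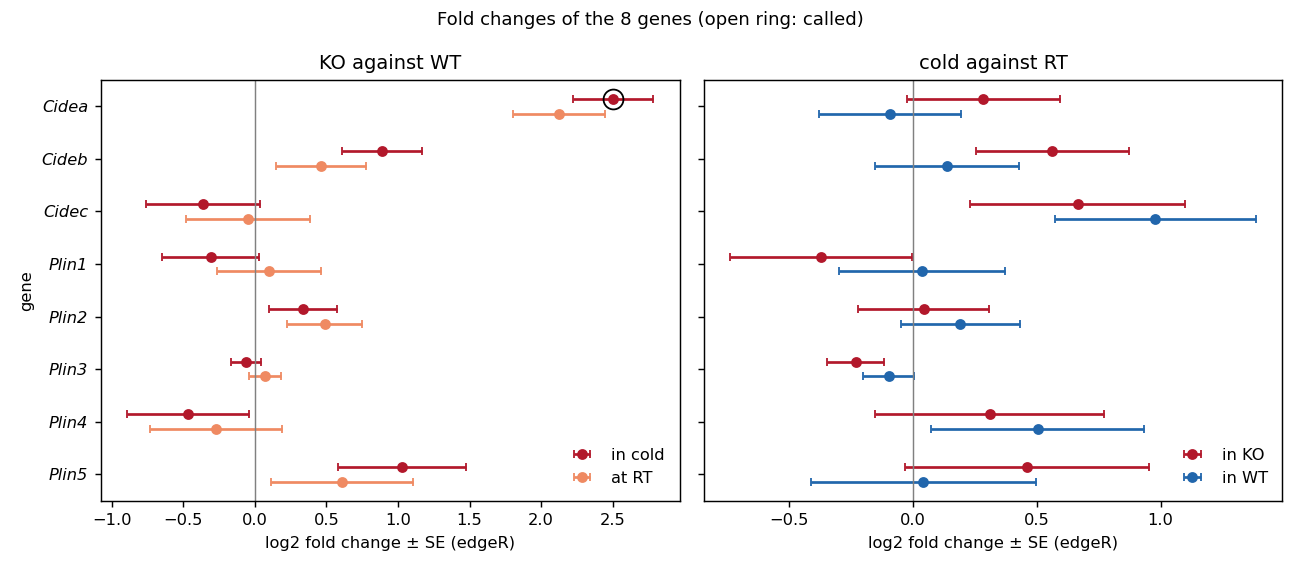
Log2 fold changes with their SE from the edgeR fit for each of the 8 genes, with KO against WT on the left (in cold and at RT) and cold against RT on the right (in KO and in WT). The ring marks Cidea in cold (2.50), the only called value of those drawn, and Cidec has the largest cold differences (0.67 in KO and 0.98 in WT).

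Plin1, the gatekeeper of adipocyte lipolysis, had 450 and 1076 CPM in KO cold and 1007 and 966 CPM in KO RT libraries, against 702, 1108 and 1028 CPM in WT cold and 918 and 924 CPM in WT RT libraries. The KO and WT ranges overlapped in cold, the KO RT values lay just above the WT RT values, and mouse 1781 was the lowest. Plin4, an adipocyte perilipin of young droplets, had 682 and 2002 CPM in KO cold and 1213 and 951 CPM in KO RT libraries, against 1481, 1946 and 2133 CPM in WT cold and 962 and 1653 CPM in WT RT libraries. Its groups overlapped as well. As a description over the 9 libraries, the Pearson r of log2 CPM was 0.81 between Plin4 and Cidec and 0.18 between Plin4 and Plin5.

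In cold, KO against WT, the log2 fold changes of Cidec, Plin1 and Plin4 were -0.36 (SE 0.397), -0.31 (SE 0.337) and -0.47 (SE 0.427), and none was called. Each turned positive without mouse 1781, to 0.23, 0.18 and 0.10, and without mouse 1782 they were -1.39, -1.07 and -1.44. Mouse 1781 also had the lowest summed level of the 10 mature adipocyte markers, 18604.5 CPM against 31424 to 47479.5 CPM in the other 8 libraries, and Adipoq, the adiponectin gene, stood at 593 CPM in it. The part of this shift in the values of the 3 genes was not tested. Cidea was not low in this library (123 CPM, against 127 CPM in the other KO cold library). With library sizes set by the adipocyte markers, the log2 fold change of Cidea in cold was 3.03. That scaling moved the median of all genes in this comparison by 0.49.

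**Figure D4:**
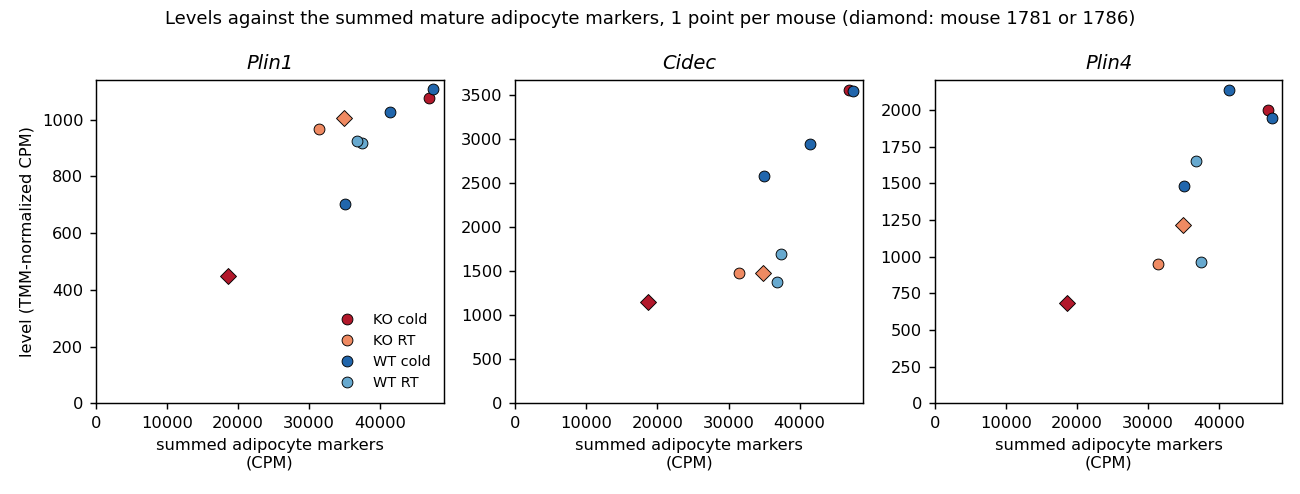
Levels of Plin1, Cidec and Plin4 in CPM against the summed level of 10 mature adipocyte markers in CPM, with 1 point per mouse for KO cold, KO RT, WT cold and WT RT libraries and diamonds for mice 1781 and 1786. Mouse 1781 is at the lower left of each panel, with 450 CPM of Plin1, 1153 CPM of Cidec and 682 CPM of Plin4.

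Plin2, the perilipin of most cell types, had 463 and 586 CPM in KO cold and 380 and 637 CPM in KO RT libraries, against 332, 434 and 478 CPM in WT cold and 355 and 371 CPM in WT RT libraries. At RT both KO libraries were above both WT libraries, in cold the groups overlapped, and the log2 fold change over both housings was 0.41 (SE 0.177, adjusted p = 0.425). Plin3, which moves from the cytosol to new droplets, was the steadiest member. It had 41.8 and 38.4 CPM in KO cold, against 43.7 and 50.3 CPM in KO RT libraries, and 39.0, 43.8 and 42.7 CPM in WT cold, against 46.3 and 43.1 CPM in WT RT libraries. Its largest difference was -0.23 for cold against RT in KO (SE 0.113, adjusted p = 0.379), where the groups did not overlap. This sign turned, to 0.23, with library sizes set by the adipocyte markers, which moved the median of all genes in that comparison by 0.45.

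Plin5, the perilipin of oxidative tissues, had 15.4 and 27.1 CPM in KO cold and 12.6 and 18.3 CPM in KO RT libraries, against 7.34, 10.2 and 13.7 CPM in WT cold and 5.21 and 15.1 CPM in WT RT libraries. Both KO cold libraries were above all WT libraries, and the RT groups overlapped. The log2 fold change was 1.03 in cold (SE 0.445, adjusted p = 0.817), 0.61 at RT (SE 0.497, adjusted p = 0.796) and 0.82 over both housings (SE 0.335, adjusted p = 0.41), so that Plin5 was not called. Of the perilipins, Plin2 and Plin5 had the closest profiles over the 9 libraries (r = 0.78), and Cidea had r = 0.75 with Plin2 and 0.73 with Plin5.

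As a group, 5 of the 8 members were higher and 3 lower in KO over both housings, with a median log2 fold change of 0.21, beside a median of 0.00 over all genes, and Cidea, Plin2, Plin5 and Cideb were the members that passed an unadjusted p of 0.05, which 11.6% of all genes did. In cold against RT over both genotypes, 6 were higher and 2 lower, with a median of 0.19, beside 0.00 over all genes. For the difference of the cold responses, KO minus WT, edgeR called 0 of the 8 members and 0% of all genes, 0 members passed an unadjusted p of 0.05 (2.74% of all genes), and DESeq2 called 0 members. The differences ran from -0.41 for Plin1 (SE 0.497) to 0.43 for Cideb (SE 0.423).

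Ratios within a library do not depend on library scaling, and 3 of them were formed from counts per length. Cidea to Cidec was 0.157 and 0.053 in KO cold and 0.0714 and 0.133 in KO RT libraries, against 0.00951, 0.00845 and 0.0147 in WT cold and 0.0213 and 0.0244 in WT RT libraries. The KO and WT libraries did not overlap. The difference was 2.60 on the log2 scale, or 6.08-fold (two-sided exact permutation test within housings, p = 0.0167, adjusted p = 0.1 over 6 tests). With 60 arrangements 0.0167 is the smallest p possible, so no ratio could be called after adjustment unless several reached it.

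Plin5 to Plin1 was 0.0322 and 0.0237 in KO cold and 0.0118 and 0.0178 in KO RT libraries, against 0.00983, 0.00868 and 0.0126 in WT cold and 0.00533 and 0.0153 in WT RT libraries. This is 1.06 higher in KO on the log2 scale (exact permutation p = 0.05, adjusted p = 0.1), and the ranges overlapped. Plin2 to Plin1 was 1.04 and 0.553 in KO cold and 0.383 and 0.67 in KO RT libraries, against 0.48, 0.398 and 0.473 in WT cold and 0.392 and 0.408 in WT RT libraries. It was 0.55 higher in KO (exact permutation p = 0.05, adjusted p = 0.1), with overlapping ranges and the highest value in mouse 1781, without which the difference was 0.32. For cold against RT, the log2 differences were -0.60 for Cidea to Cidec, 0.37 for Plin2 to Plin1 and 0.56 for Plin5 to Plin1, with exact permutation p-values of 0.267, 0.317 and 0.183.

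The partners of the perilipins at the droplet surface were examined from a list of 13 genes of lipolysis, all of which were tested. In the KO against WT comparisons, edgeR called 0 of them, and an unadjusted p of 0.05 was passed by 1 (lower) at RT, 0 in cold and 1 (lower) over both housings, where 4.72%, 2.77% and 6.48% of all genes were lower at that level. Their median log2 fold change was 0.12 at RT with 10 of 13 positive, -0.15 in cold with 3 positive and -0.04 over both housings, beside medians within 0.01 of 0 over all genes. Pnpla2, the lipase ATGL that starts triglyceride breakdown, had 1413 and 3187 CPM in KO cold and 2497 and 2386 CPM in KO RT libraries, against 2336, 2892 and 2435 CPM in WT cold and 2279 and 2293 CPM in WT RT libraries. Lipe (hormone-sensitive lipase) ran between 814 CPM, in mouse 1781, and 1684 CPM. Abhd5, the co-activator that Plin1 holds, ran between 145 CPM, in the same mouse, and 260 CPM, and G0s2, an inhibitor of ATGL, between 84.1 CPM, again in 1781, and 195 CPM.

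The list member that passed the test with cold was Adrb3, the beta-3 adrenergic receptor whose signal opens the Plin1 gate. It averaged 70.5 ± 0.843 CPM in KO cold, against 410 ± 34.1 CPM in KO RT libraries (SD, n = 2 each). In WT it averaged 81.5 ± 14.8 CPM in cold (SD, n = 3), against 377 ± 6.75 CPM at RT (SD, n = 2). It fell in cold in both genotypes, with log2 fold changes of -2.54 in KO (SE 0.177, adjusted p = 0.00487) and -2.21 in WT (SE 0.152, adjusted p = 0.00286). Of 13 genes of droplet formation and growth, 12 were tested and Clstn3 was called over both genotypes (cold against RT 1.03, SE 0.171, adjusted p = 0.0167), beside 1.6% of all genes called higher in that comparison. Its locus also makes a shorter protein of thermogenic adipocytes, which gene-level counts do not separate. Clstn3 averaged 112 ± 17.2 CPM in KO cold, against 56.2 ± 21.9 CPM in KO RT libraries (SD, n = 2 each). In WT it averaged 64.7 ± 9.17 CPM in cold (SD, n = 3), against 30.8 ± 0.0699 CPM at RT (SD, n = 2). Of 15 other droplet proteins, all tested, edgeR called 0 in the 7 comparisons.

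Of the remaining nearest profiles over the 9 libraries, Plin1 was closest to Ifi27 and Mgst3 (r = 0.99 each), Plin4 to Lactb (r = 0.97) and 2310001K24Rik (r = 0.96), and Plin2 to Fuom (r = 0.94) and Suclg1 (r = 0.93). Plin5 was closest to Tmem55b (r = 0.94) and Lipg (r = 0.93), and Plin3 to Sytl4 and Pcyox1 (r = 0.91 and 0.90). For Cideb the nearest were Gm20324 (r = 0.95) and Cd163l1 (r = 0.93), both under 0.5 CPM on average, where few counts stand behind each value.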

How the data were processed

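RNA from inguinal fat of 9 mice was sequenced on BGISEQ. Per the labels and methods, the authors aligned reads to mm10 with STAR, dropped multimapping and mitochondrial reads, and counted with featureCounts (versions, annotation and strand setting: not given in the sources used here). They deposited raw counts and RPKM per gene. Groups followed the names of the count columns. The 2 RPKM columns of mice 1781 and 1786, which could not be assigned, were the columns of per-sample values not used, and the authors' fold change and p-value columns were not used.

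Counts were fitted with edgeR 4.0.16 (R 4.3.3; filterByExpr, TMM, robust quasi-likelihood, 1 fit of 4 groups, 7 comparisons). Called means a Benjamini-Hochberg adjusted p under 0.05 over 16745 genes and a fold above 1.5, or adjusted p alone for the difference of cold responses. CPM are TMM-scaled, with a prior count of 2 on the log2 scale for correlations. DESeq2 1.42.0 was an alternative. Named genes were the 8 members, Tet1, called genes of the droplet lists, 4 lipolysis partners and the 2 nearest profiles per member. Ucp1, Ppargc1a, Adipoq, Csn2, Wap, Nop9 and Hdgfl2 were added after their values or positions were seen. Members and lists were chosen with earlier results of these data known. Libraries of a group came from separately numbered mice and differed by more than sampling noise.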

Additional observations from a re-analysis of the deposited data

How the results depend on the processing

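Alternatives were size factors of DESeq2, no filter on low counts, DESeq2, grouping by sample titles, only the groups compared, leaving out mice 1781 and 1786 or each library in turn, and, chosen after seeing the data, library sizes set by adipocyte markers. No paired analysis was possible because the groups share no mouse numbers. At RT, KO against WT, members called were 0, but 1 (Cidea) with DESeq2 and with adipocyte scaling (2.01, adjusted p = 0.00711). In cold the count was 1 and ranged from 0 to 1 over left-out libraries, as it did over both housings. In cold against RT over both genotypes it was 0, but 1 (Cidec) with DESeq2, 1 without mice 1781 and 1786, and 0 to 1 over left-out libraries. The other comparisons stayed at 0 members.

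With grouping by titles, log2 differences turned to -0.35 for Plin2 to Plin1 and -0.17 for Plin5 to Plin1 (cold against RT), to 0.14 for Plin1 (KO against WT in cold) and, for Cidea in cold against RT, to -0.37 in KO and -0.23 over both genotypes. Without mice 1781 and 1786, they turned to -0.056 for Plin2 to Plin1 in cold against RT, to 0.23 for Cidec, 0.18 for Plin1 and 0.10 for Plin4 (KO against WT in cold), and for Cidea in cold against RT to -0.077 in KO and -0.082 over both genotypes. Over left-out libraries, KO against WT in cold ran from -1.39 (without 1782) to 0.23 (without 1781) for Cidec, -1.07 to 0.18 for Plin1 and -1.44 to 0.10 for Plin4, and cold against RT ran from -0.36 to 1.26 for Cidec in KO, and for Cidea from -0.11 to 0.81 in KO, -0.35 to 0.088 in WT and -0.10 to 0.36 over both genotypes. With adipocyte scaling, Plin3 turned to 0.23 in KO cold against RT. Of 26 further member fold changes, none called, 4 turned with grouping by titles (Plin1 to -0.38 between KO and WT at RT, and for cold against RT to 0.56 in KO and 0.30 over both genotypes, and Plin2 to -0.19 in KO cold against RT), 5 without mice 1781 and 1786, and 7 with adipocyte scaling (the largest being Plin3, to 0.46 in KO against WT in cold). The causes were not tested. That scaling moved the median of all genes to 0.50 (KO against WT in cold), -0.14 (at RT) and 0.17 (both housings), and to 0.46, -0.19 and 0.13 for cold in KO, in WT and over both.

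Over all genes, DESeq2 called 62 higher and 64 lower at RT (edgeR 6 and 0), and 65 and 35 in cold (13 and 0), KO against WT. In cold against RT over both genotypes, grouping by titles called 0 higher and 1 lower, where the column names gave 268 and 259. With 2 or 3 mice a group, a member that was not called is not shown to be unchanged.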
